A study of Mus musculus with 2 samples.

Results

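The double-stranded RNA sensors of the cell and their adaptors were followed in mouse bone-marrow-derived macrophages exposed to poly(I:C), an artificial RNA duplex that stands in for viral RNA. They comprised 9 of the 22014 genes on the array, namely Ddx58, Ifih1, Dhx58, Tlr3, Mavs, Ticam1, Eif2ak2, Adar and Zbp1, chosen by name, and each was read by 1 probe set. The macrophages were of the C57BL/6J strain and either wild-type (WT) or without Oasl1 (Oasl1-/-). All cells had been differentiated for 7 days in medium with supernatant of L929 fibroblasts and then kept for 9 h with poly(I:C) at 5 µg/ml. For each genotype the RNA of 3 samples was pooled and hybridised to 1 Affymetrix Mouse Gene ST array, so that no difference had a replicate check or a p-value. Both arrays of the series hold RNA of treated cells. The labels do not say where in Oasl1 the deletion lies, so its probe set cannot check the knockout. In such bulk RNA, fewer cells of a type and less RNA per cell cannot be told apart.

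Cells detect foreign double-stranded RNA in separate compartments. RIG-I, MDA5 and LGP2 (encoded by Ddx58, Ifih1 and Dhx58) are helicases that bind it in the cytosol, and the former pair signals through the mitochondrial adaptor MAVS, while TLR3 binds it in endosomes and signals through the adaptor TRIF, encoded by Ticam1. Both routes activate the kinases that phosphorylate the transcription factors IRF3 and IRF7, which drive the type I interferon genes, and secreted interferon in turn raises the transcripts of many of the sensors themselves. PKR (Eif2ak2) binds double-stranded RNA and halts translation by phosphorylating eIF2, ADAR edits adenosines in such RNA and so keeps the cell's own RNA from being sensed, and ZBP1 binds nucleic acids in the Z form and can start programmed cell death.

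RefSeq promoter windows of GRCm38.p6, from 250 bases before to 50 bases after an annotated start, were at hand for 7 of the 9 genes, those other than Dhx58 and Zbp1. They were searched on both strands for GAAA, any pair of bases and GAAA again, the core of the element that interferon-activated factors bind, and for AA, any pair of bases and GAAA, the shorter site shared by interferon regulatory factors, which every match of the longer motif contains. The longer motif was in the windows of 3 of the 7 genes, Ddx58, Ifih1 and Eif2ak2, against 3.99% of all 27025 genes with a window. The 3 windows that held it are shown with the match of the longer motif in capitals, beside that of Mavs, the adaptor of the helicases, which held neither motif. The window of Ddx58 is chr4:40239776-40240075 (minus strand), that of Ifih1 chr2:62646206-62646505 (minus strand), that of Eif2ak2 chr17:78882523-78882822 (minus strand) and that of Mavs chr2:131233813-131234112 (plus strand), each read 5′ to 3′ on the strand of the gene.
Ddx58: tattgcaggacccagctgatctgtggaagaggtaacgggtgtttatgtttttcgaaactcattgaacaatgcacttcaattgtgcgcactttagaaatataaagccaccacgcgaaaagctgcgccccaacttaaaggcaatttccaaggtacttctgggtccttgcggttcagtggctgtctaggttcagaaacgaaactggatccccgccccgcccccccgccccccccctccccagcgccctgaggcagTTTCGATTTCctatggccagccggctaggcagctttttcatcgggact
Ifih1: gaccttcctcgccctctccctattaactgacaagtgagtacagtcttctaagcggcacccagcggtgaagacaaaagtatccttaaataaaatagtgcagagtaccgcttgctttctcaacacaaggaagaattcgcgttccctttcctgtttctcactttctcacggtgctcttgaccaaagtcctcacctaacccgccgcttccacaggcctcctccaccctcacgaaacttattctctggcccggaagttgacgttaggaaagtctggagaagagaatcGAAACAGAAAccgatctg
Eif2ak2: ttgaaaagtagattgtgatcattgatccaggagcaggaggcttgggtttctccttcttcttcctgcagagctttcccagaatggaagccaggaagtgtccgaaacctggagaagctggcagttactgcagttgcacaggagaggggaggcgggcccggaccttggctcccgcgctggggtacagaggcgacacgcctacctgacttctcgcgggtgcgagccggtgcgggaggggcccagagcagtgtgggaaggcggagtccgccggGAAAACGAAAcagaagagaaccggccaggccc
Mavs: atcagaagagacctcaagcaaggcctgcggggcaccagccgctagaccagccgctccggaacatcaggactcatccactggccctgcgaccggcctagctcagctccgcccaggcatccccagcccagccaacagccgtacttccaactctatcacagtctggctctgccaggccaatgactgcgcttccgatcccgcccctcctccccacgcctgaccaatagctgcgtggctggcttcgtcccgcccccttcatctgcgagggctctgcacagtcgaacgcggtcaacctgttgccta

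Counted from the first base of its window, the match lay at bases 253 to 262 in Ddx58, on the opposite strand (GAAATCGAAA), at bases 283 to 292 in Ifih1 (GAAACAGAAA) and at bases 269 to 278 in Eif2ak2 (GAAAACGAAA). All 3 matches lay downstream of the annotated start. The shorter motif was in the windows of 5 of the 7 genes, the same 3 with Tlr3 (bases 192 to 199, AAGTGAAA on the opposite strand) and 1 of the 3 windows of Adar (bases 280 to 287, AAACGAAA), against 26.7% of all genes with a window. The windows of Mavs and Ticam1 held neither. A match describes letters and is not a measured binding site, and with no untreated array these data hold no measure of induction.

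**Figure D1:**
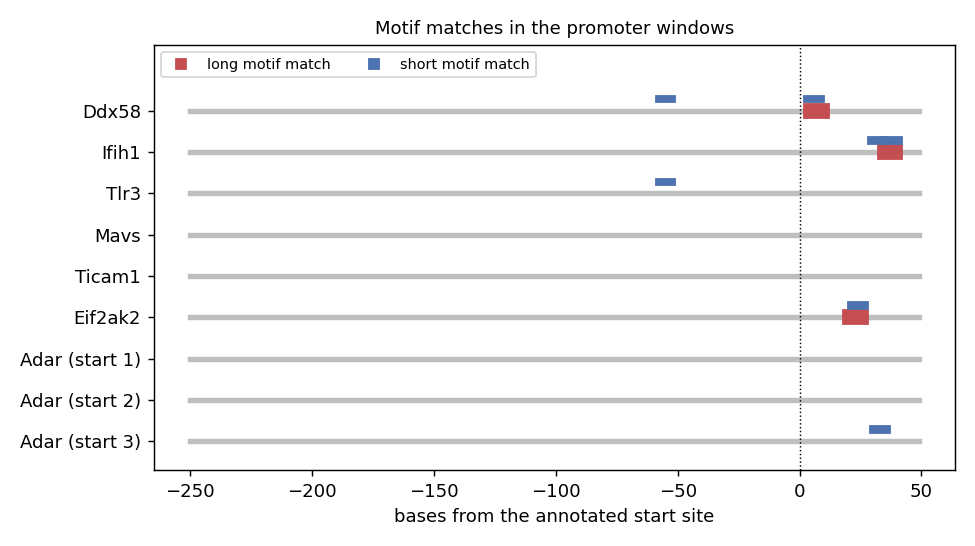
Motif matches in the promoter windows of the 7 genes, as bases from the annotated start site (dotted line), with red blocks for the longer motif and blue blocks for the shorter one. The longer motif is in the windows of Ddx58, Ifih1 and Eif2ak2, and Adar has 3 annotated starts.

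Both arrays were first checked as a whole. The floor of an array was set at the 95th percentile of its negative controls, at 7.75 (log2) in WT and 7.68 in Oasl1-/-, and 6376 genes lay above it on at least 1 array. Differences are the log2 value of Oasl1-/- less that of WT, and their median over these genes was -0.04. The targeted gene Oasl1 itself measured 11.13 in Oasl1-/- against 12.59 in WT. All 9 macrophage markers were above the floor on both arrays, with differences from -0.06 to 0.07, and of 25 markers of 5 other cell types only Ngp was above it, on the Oasl1-/- array alone. The neutrophil markers had higher measured values on the Oasl1-/- array in 6 of 7 cases, as had 17 of all 25 markers. Their summed linear signal was 383 in WT and 604 in Oasl1-/-. As 6 of these 7 were below the floor on both arrays, the sums hold mainly values that cannot be told from background. The part of neutrophils in the differences given here was not tested.

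The sensors and adaptors above the floor measured nearly the same on the WT array and the Oasl1-/- array. Of the 9 genes, 8 were above the floor on both arrays and Ticam1 was below it on both. None of the 8 differed by 1.5-fold or more, where 0.878% of all genes above the floor did, none by 2-fold, where 0.22% did, and none by a log2 difference of 0.32, where 6.34% did, so that these counts of 0 are near the background. The largest difference was 1.12-fold, that of Dhx58. The 8 genes had a median of 0.08, beside -0.04 for all genes above the floor. All of them but Mavs had a mean value of at least 10. The 1694 genes that bright had a median of -0.01, and the 4682 dimmer ones -0.06, so the background of all genes is mostly dimmer than the members. Of the 8 genes, 5 had a higher value in Oasl1-/- and 3 a lower one, while 36.5% of all genes above the floor had a higher value. With differences centred on the median gene the split was 6 and 2, since Zbp1 turned, and 50% of all genes were then higher by construction. With the trend on brightness removed it was 5 and 3, beside 50.4% of all genes higher.

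**Figure D2:**
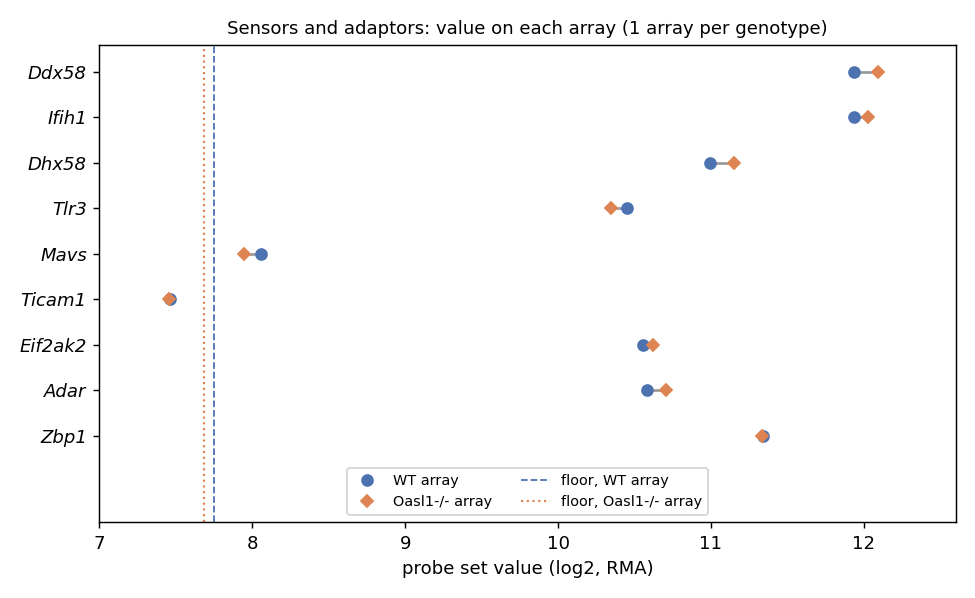
Probe set values (log2, RMA) of the 9 genes on the WT array (blue circles) and the Oasl1-/- array (orange diamonds), with the floor of each array as a vertical line and no error bars, since there was 1 array per genotype. Each pair of points lies close together, with a gap of at most 0.16, and only Ticam1 lies left of both floors. Levels of different probe sets are not comparable with each other.

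The 3 cytosolic helicases had slightly higher values in Oasl1-/- cells. Ddx58 (NM_172689, chromosome 4, positions 40151892 to 40186793 in the NCBIM37 build, minus strand), the gene of RIG-I, whose protein recognises RNA ends that carry triphosphate, measured 11.94 in WT against 12.09 in Oasl1-/-. It was 1.11-fold higher, a difference of 0.15. Ddx58 stood 4.19 above the floor in WT and 4.41 above it in Oasl1-/-, far from the negative controls in both genotypes.

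Ifih1 (NM_027835, chromosome 2, positions 62435358 to 62484217, minus strand), the gene of MDA5, which binds long double-stranded RNA and is a main cytosolic receptor for poly(I:C), had 11.93 in WT against 12.03 in Oasl1-/-. Its difference was 0.10, or 1.07-fold. Both of these signalling helicases, which carry the caspase recruitment domains that engage MAVS, had the longer motif in the promoter windows printed above.

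Dhx58 (NM_030150, chromosome 11, positions 100556198 to 100565585, minus strand), the gene of LGP2, which lacks those domains and modulates the other helicases, had 10.99 in WT against 11.15 in Oasl1-/-. The difference of 0.16, or 1.12-fold, was the largest of the 9 genes. Of all genes above the floor, 7.76% had a difference at least as high as that of Dhx58, 8.38% as that of Ddx58 and 15.0% as that of Ifih1. These shares pool genes of all brightness. Genes with a mean under 10 scattered more widely (robust SD 0.15) than brighter ones such as the helicases (0.10). The direction of the 3 helicases was the same under the 4 processing choices that could move their values.

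The differences were set beside the scatter of other genes of like brightness, since that scatter narrows as values grow. Among the 500 genes closest in mean value to each member, the middle 95% of differences ran from -0.20 to 0.22 for Ddx58 and from -0.25 to 0.25 for Dhx58. All 8 members above the floor lay inside their range. This scatter comes from 2 arrays and mixes real differences between genotypes with measurement error, so it is a description and not a test.

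**Figure D3:**
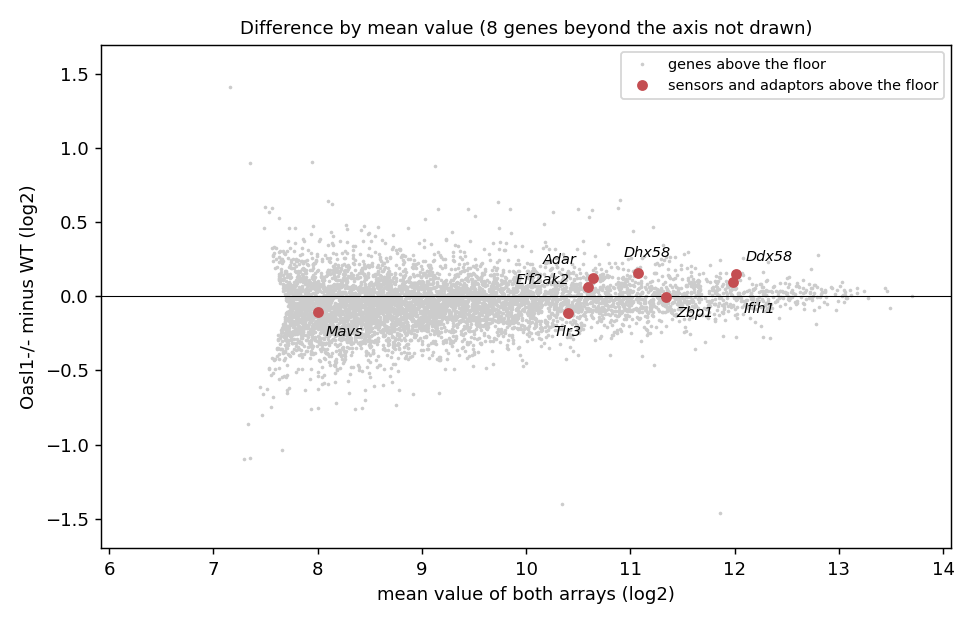
Difference Oasl1-/- minus WT (log2) against the mean value of both arrays (log2) for genes above the floor (grey dots), with the 8 sensors and adaptors above the floor in red; 8 genes beyond 1.7 on the vertical axis are not drawn. The red points lie within the cloud of other genes, the helicases on its upper side and Mavs and Tlr3 below 0.

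The endosomal receptor had a slightly lower value in Oasl1-/- cells. Tlr3 (NM_126166, chromosome 8, positions 46481019 to 46495931, minus strand) had 10.45 in WT against 10.34 in Oasl1-/-. It was 1.08-fold lower, with a difference of -0.11. It was opposite in direction to the helicases, and 32.5% of the genes above the floor had a difference at least as low. Whether Tlr3 and the helicases truly differ was not tested, as each difference came from a single pair of arrays.

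The adaptors lay near the floor, Mavs above it and Ticam1 below it, with similar measured values on both arrays. Mavs (NM_144888, chromosome 2, positions 131059803 to 131073761, plus strand), the mitochondrial adaptor of RIG-I and MDA5, had 8.06 in WT against 7.95 in Oasl1-/-, which was 0.30 and 0.26 above the floor. Its difference was -0.11, or 1.08-fold lower. At the brightness of Mavs the neighbouring genes were themselves shifted down, with a median of -0.08, and the difference was -0.02 once the trend with brightness had been removed.

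Ticam1 (NM_174989, chromosome 17, positions 56408885 to 56416180, minus strand), the adaptor of TLR3, had 7.46 on both arrays, below the floors of 7.75 and 7.68. No fold is therefore given for it, and its level is known only as not above the floor. Under 3 of the 4 processing choices that could move it, its measured difference of -0.01 turned positive, up to 0.08.

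The remaining genes, whose proteins act on double-stranded or Z-form nucleic acids, were also close to equal. Eif2ak2 (NM_011163, chromosome 17, positions 79251904 to 79281912, minus strand), the gene of PKR, had 10.56 in WT against 10.62 in Oasl1-/-, a difference of 0.06. Adar (NM_001038587, chromosome 3, positions 89518982 to 89557367, plus strand), the RNA-editing deaminase, had 10.58 and 10.71, a difference of 0.12, or 1.09-fold. The single probe set of Adar reports all transcripts together, so that the interferon-induced long form and the constitutive short form known for this gene are not told apart.

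Zbp1 (NM_021394, chromosome 2, positions 173032113 to 173044393, minus strand) had 11.34 on both arrays, with a difference of -0.01. That was the smallest difference among the members above the floor, and 96.6% of all genes above the floor differed by at least as much. The sign of the Zbp1 difference flipped when values were centred on the median gene (0.04). Of the members above the floor, Eif2ak2 came next in closeness, with 65.8% of genes differing by at least as much.

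**Figure D4:**
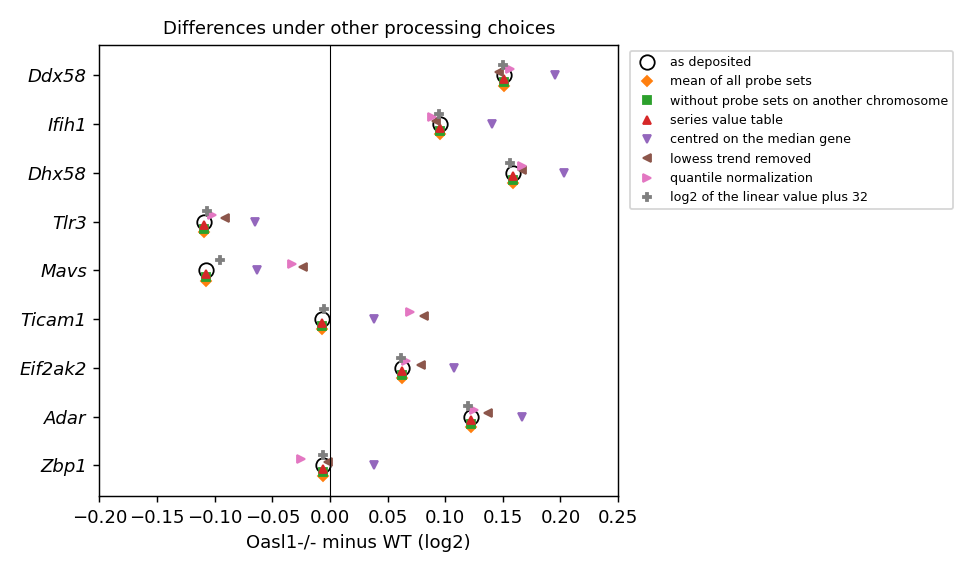
Difference Oasl1-/- minus WT (log2) of each of the 9 genes as deposited (open circles) and under 7 other processing choices (coloured symbols), 3 of which leave these single probe sets as they are. Ddx58, Ifih1, Dhx58, Eif2ak2 and Adar stay right of 0 and Tlr3 and Mavs left of it, while Ticam1 and Zbp1 cross it.

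The genes around the sensors were examined through 8 lists by role. They named 110 genes, of which 109 were measured and 84 were above the floor. Of these 84, 28 had a higher and 56 a lower value in Oasl1-/-, with a median difference of -0.04, the same as over all genes. By measured values only 3 differed by 0.32 or more, namely Ifnb1, Il12b and Mex3c, beside 6.34% of all genes above the floor. Only Ifnb1 had a measured difference of 1.5-fold, beside 0.878% of all those genes. Set against the WT floor, Ifnb1 was higher by only 1.08-fold or more, so its passing of either threshold is not established.

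Most genes on these arrays had lower values in Oasl1-/-, 63.5% of those above the floor, and the counts of the lists are read against that share. Of 11 regulators of the cytosolic helicases above the floor, 1 was higher and 10 lower, at a median of -0.09, and after centring on the median gene 3 were higher and 8 lower. With quantile normalization the split was again 1 and 10. The largest differences were those of Mex3c (9.05 in WT against 8.66 in Oasl1-/-, difference -0.38) and Trim25 (10.95 and 10.69, difference -0.26), both of which encode ubiquitin ligases reported to act on RIG-I. None reached 1.5-fold.

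Signalling genes below MAVS and TRIF showed small differences. Of 16 above the floor, 2 were higher and 14 lower, beside the 63.5% lower over all genes, at a median of -0.09, while after centring 5 were higher and 11 lower. Irf7, the factor whose translation OASL1 is known to restrain, had 12.48 in WT against 12.19 in Oasl1-/-, a difference of -0.28. Fadd, an adaptor of death signalling that also lies on the list for ZBP1, had 8.12 and 7.84, a difference of -0.28, and Irf3 had 7.95 and 7.81.

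The proteins that carry and process TLR3 showed no common direction. Of 11 genes, all above the floor, 6 had higher and 5 lower values (median 0.01), and after centring 8 were higher and 3 lower. Without the trend on brightness the split was 6 and 5, and with quantile normalization 5 and 6. Wdfy1, which has been linked to signalling by TLR3, measured 7.83 in WT against 7.57 in Oasl1-/-, where it was below the floor, and was at least 1.11-fold lower. Cnpy3, a chaperone of Toll-like receptors, had 8.83 and 8.68.

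Partners of PKR and the eIF2 machinery were split as well. Of 12 genes above the floor, 4 were higher and 8 lower, at a median of -0.05, while 6 were higher and 6 lower after centring and 7 were higher and 5 lower without the trend on brightness. Eif2b1, a subunit of the exchange factor that reloads eIF2, had 8.31 in WT against 8.07 in Oasl1-/-, a difference of -0.23. Ppp1r15a, which directs the phosphatase that reverses the action of PKR on eIF2, had 8.40 and 8.61, a difference of 0.21.

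None of the 6 measured relatives of Adar was above the floor, so that among the deaminases listed only Adar itself gave a usable signal. Of 11 genes of death signalling around ZBP1 above the floor, 5 were higher and 6 lower, at a median of -0.02. After centring 6 were higher and 5 lower, and without the trend on brightness 5 were higher and 6 lower. With quantile normalization 3 were higher, 7 lower and 1 equal. Nlrp3, the inflammasome sensor, had the largest difference of that list, -0.29 (9.04 in WT against 8.75 in Oasl1-/-). Ripk3 and Mlkl, the kinase that ZBP1 engages and the executor of necroptosis, were picked after their values were seen and had differences of 0.05 and 0.02.

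Other helicases and double-stranded RNA-binding proteins stayed within a narrow band, from -0.18 to 0.05. Of 15 above the floor, 3 were higher and 12 lower, at a median of -0.03, but 9 were higher and 6 lower after centring, and 7 were higher and 8 lower with quantile normalization. Dhx36 had the largest difference (9.03 in WT against 8.85 in Oasl1-/-, difference -0.18) and Dhx15 followed (10.65 and 10.55, difference -0.10), both of them RNA helicases.

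The listed transcripts downstream of the sensors had small differences for the most part. Of 10 transcripts above the floor that these sensors are known to induce, 7 were higher and 3 lower, at a median of 0.05. Of all genes above the floor, 36.5% were higher. Without the trend on brightness the split was again 7 and 3, beside 50.4% of all genes higher. Ifnb1 passed the floor only on the Oasl1-/- array, so that the filter itself counted it as higher. Ifnb1 measured 7.87 in Oasl1-/- and 6.45, below the floor, in WT, at least 1.08-fold higher, so that the measured difference of 1.41 is not a fold that can be relied on. The remaining 2 of the 12 listed, both below the floor on both arrays, had measured values of 4.49 and 7.63 (Ifna4, an interferon alpha gene) and of 5.12 and 5.83 (Il6, a cytokine gene). The other 9 above the floor ran from -0.42 for Il12b (9.64 and 9.22), a cytokine subunit, to 0.09 for Ifit2 (12.98 and 13.07), an antiviral effector.

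**Figure D5:**
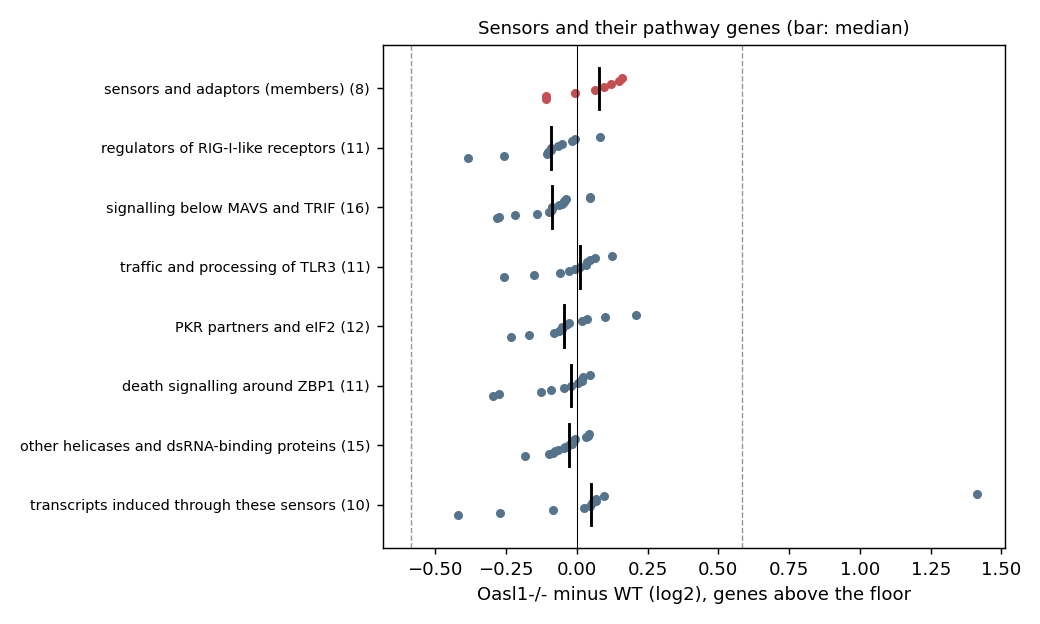
Difference Oasl1-/- minus WT (log2) of each gene above the floor, for the 8 sensors and adaptors (red) and for 7 lists of pathway genes (blue), with the number of genes in parentheses, a black bar at the median and dashed lines at 1.5-fold. The members' median is 0.08, and the only point beyond the dashed lines is Ifnb1, drawn at its measured difference although its WT value is below the floor.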

How the data were processed

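The values are log2 values per probe set as deposited by the authors, from 1 array of pooled RNA per genotype. GCOS and RMA are named in the submitters' processing notes, without versions. RMA corrects the background, normalizes and summarises the probes, and it compresses the differences of dim probe sets, while pooling hides the spread between cultures. Joint normalization of the arrays is not stated. The authors' deposited log2 ratio equalled the difference of the values in all 35556 probe sets.

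Members were matched by the deposited gene symbol. Other symbols were updated with the RefSeq table of GRCm38.p6, keeping for each gene the probe set with the highest mean. The floor was set on 5267 negative control probe sets, and comparisons used genes above it on at least 1 array. The fold of a gene above the floor on 1 array only is a lower bound, taken against the floor or, if higher, the dim value. Gene coordinates are those of the deposited table, whose transcript descriptions name NCBIM37, and promoter windows are on GRCm38.p6.

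The members and lists were chosen with earlier results of these data known. Named are all members, Oasl1, Irf3, Irf7, Ifnb1 and, of each list, the genes at least 1.5-fold different or else the 2 with the largest difference, with others marked or given for a count. With 2 arrays no gene was named for likeness of pattern. The number of arrays limits the precision. Counting was tested on simulated data. Python 3.11.15, NumPy 2.4.6, pandas 2.3.3, statsmodels 0.14.6 (lowess, span 0.3) and Matplotlib 3.10.9 were used.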

Additional observations from a re-analysis of the deposited data

How the results depend on the processing

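No member differed by 1.5-fold under any of the 12 alternatives, and none reached the lower threshold of 0.32 (log2) or that of 2-fold. Several of these could not give another count. The result at 2-fold follows from that at 1.5-fold, and the choices of floor leave the values of the members unchanged. The median difference of the members above the floor ran from 0.06 to 0.12, and each of the 8 members above the floor moved by less than the robust SD of genes of like brightness under the 4 choices that alter members' values (centring, trend removal, quantile normalization and 32 added to the linear value). The other 3 (mean of all probe sets, own chromosome only and the second table) leave a gene with 1 probe set as it is. Ddx58 ran from 0.15 to 0.20, Ifih1 from 0.09 to 0.14, Dhx58 from 0.16 to 0.20, Tlr3 from -0.11 to -0.07 and Mavs from -0.11 to -0.02. The sign was kept for all members but Ticam1, which turned under 3 choices (centring, trend removal and quantile normalization), and Zbp1, which turned under centring. The count of all genes at least 1.5-fold different, 56, was 263 with no floor, 170 with the array median as the floor, 27 with the floor on both arrays and 34 with 32 added to the linear value. At a difference of 0.32 the count was 404 and at 2-fold it was 14. No paired analysis was possible because each genotype had 1 array, and for the same reason no replicate could be left out.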

Other observations

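Genes that share an annotation with the members in the deposited table were also examined, through groups chosen after the data were seen. Of 11 other genes above the floor annotated with double-stranded RNA binding, 2 had higher and 9 lower values in Oasl1-/-, with a median of -0.07. After centring on the median gene 5 were higher and 6 lower. Without the trend on brightness the split was 6 and 5, and with quantile normalization 4 and 7. Oas1c, an oligoadenylate synthetase gene, had the largest difference (8.35 in WT against 8.01 in Oasl1-/-, difference -0.34), followed by Son, a splicing factor gene (10.20 and 9.91, difference -0.29). Of 66 other genes with helicase activity above the floor, 20 were higher against 46 lower (median -0.05). After centring 31 were higher and 35 lower, without the trend on brightness 36 and 30, and with quantile normalization 32 and 34. Shprh, a gene of DNA repair, had the largest measured difference, with 7.81 in WT and 7.28 in the Oasl1-/- cells. The latter value was below the floor of 7.68, so that its difference is known only as at least that from 7.81 to the floor. Ddx50, a nucleolar helicase gene, followed and was above the floor on both arrays. It had 8.81 in WT against 8.35 in Oasl1-/-, a difference of -0.46. No gene of these 2 groups differed by 1.5-fold. Of 32 others annotated with innate immune response, 14 were higher and 18 lower, and none reached 1.5-fold either. The split was 24 and 8 after centring, 17 and 15 without the trend on brightness, and 15 and 17 with quantile normalization. Its direction thus depended on the processing.

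The annotation response to virus, which 6 of the 9 members carry, was held by genes with larger measured differences. Of 27 other genes with it above the floor, 18 were higher and 9 lower (median 0.07), or 21 and 6 after centring. By measured values 10 of them were at least 1.5-fold higher, all below the floor in WT, namely 9 type I interferon genes and Lcn2, a lipocalin gene. These 10 passed the floor only on the Oasl1-/- array, so that the filter itself counted them as higher. The split and the median of the 27 therefore cannot show a common direction. Set against the WT floor, 8 of the 10 were still at least 1.5-fold higher. Ifna15 measured 10.09 in Oasl1-/- against 5.37 in WT, at least 5.04-fold higher, and Ifna6 measured 8.85 against 4.53, at least 2.14-fold higher. The interferon alpha genes are close paralogs whose probe sets may share transcripts.

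An unnamed probe set on the plus strand within the span of Eif2ak2 (chromosome 17, positions 79258275 to 79258392) measured 3.68 in WT against 4.28 in Oasl1-/-, below the floor on both arrays. No other probe set of the deposited table overlapped the spans of the 9 genes.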
